A study of Mus musculus with 14 samples.

Results

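The 38 genes followed here in Y1 cells, a mouse adrenocortical tumour cell line, encode subunits of the proteasome and of its activators. The genes were taken from a fixed list of symbols and comprise 7 alpha and 7 beta subunits of the core, 3 immunoproteasome subunits, 6 ATPases and 3 other subunits of the base, 8 subunits of the lid and 4 proteasome activators. All 38 were present among the 24465 genes of the RNA count files. All cells were starved of serum for 48 h. One group then received 10% fetal bovine serum plus fibroblast growth factor 2 (FGF-2) at 10 ng/ml and the other 10% serum without FGF-2, and both were collected 5 h later. Polyadenylated RNA was read in 3 libraries of each group. Chromatin with histone H3 acetylated at lysine 27 (H3K27ac), which marks active promoters and enhancers, was read in 2 libraries of each group. Every library came from the same cell line, and the control cells had also been given serum. The comparison asks what FGF-2 added to the effect of serum, and neither untreated nor starved cells are among the samples analysed here.

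The proteasome degrades proteins that carry chains of ubiquitin. Its 20S core is a stack of rings, in which the outer alpha rings form the gate and the inner beta rings hold the active sites. The 19S particle caps the core, and its base of ATPases unfolds substrates while its lid removes ubiquitin. Immunoproteasome subunits replace the catalytic beta subunits in newly made cores, are induced by interferon gamma and change the peptides cut for antigen presentation. Activators such as PA28 open the core without the 19S particle. In many cell types the genes of the standard subunits are regulated together by the transcription factor Nfe2l1.

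Reads counted in genes numbered 11272041, 12696426 and 6403095 with FGF-2 and 9101089, 8159993 and 5625004 in serum alone. Levels are CPM (reads scaled to a common library size) after TMM scaling. A level of 0 has an upper limit of 0.236 to 0.533 CPM before TMM scaling, which is 3 counts in each library and covers counting error only. Of 8 adrenocortical markers, Nr5a1, Star, Cyp11a1, Scarb1 and Fdx1 passed the low-count filter. Mc2r, with at most 2 counts in any library, and Hsd3b1, with means of 0.62 CPM with FGF-2 and 1.00 CPM in serum alone, did not pass. Nr0b1 was listed at 0. Star, which carries cholesterol into mitochondria, was higher with FGF-2, with a log2 fold change of 3.80 ± 0.50 (SE, edgeR adjusted p = 0.00129). Cyp11a1, the first enzyme of steroid synthesis, was lower at -0.76 ± 0.26 (SE, edgeR adjusted p = 0.0454), a call lost in 4 of the 6 fits that each left out 1 library. Nr5a1, Scarb1 and Fdx1 were not called. Of 5 medulla markers Th and Dbh were at 0, and the sum of the 5 was 1.5 to 2.72 CPM with FGF-2 and 5.26 to 7.02 CPM in serum alone, nearly all of it Ddc, whose log2 fold change was -1.64 ± 0.27 (SE, edgeR adjusted p = 0.000901). The summed level of 5 blood and macrophage markers was 7.15 to 8.87 CPM with FGF-2 and 5.26 to 11.0 CPM in serum alone, and Ptprc and Adgre1 were at or near 0. The 4 endothelial markers summed to 3.62 to 4.29 CPM with FGF-2 and 4.78 to 8.19 CPM in serum alone, with Tek at 0 and Pecam1 lower at -0.93 ± 0.30 (SE, edgeR adjusted p = 0.0296), a call lost in 3 of those 6 fits. The 7 fibroblast and capsule markers summed to 2046 to 2836 CPM with FGF-2 and 2802 to 3508 CPM in serum alone, nearly all of it Col1a1, with Col1a2 and Dcn listed at 0. The part of these markers in the results was not tested. No label says that the libraries came from separate cultures, so the p-values measure the spread between these samples, and in bulk RNA fewer cells of a type cannot be told apart from less RNA per cell.

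With FGF-2, RNA was higher for 5 of the 14 genes of the standard core, for 6 of the 17 genes of the 19S particle and for the activator gene Psme3, and it was lower for Psmb10 of the immunoproteasome. Of 37 subunits that passed the low-count filter, 12 were higher and 1 was lower at a false discovery rate of 0.05 (edgeR quasi-likelihood test, Benjamini-Hochberg adjustment over 10374 genes). These are 32.4% and 2.70% of the subunits, where 22.1% of all tested genes were higher and 24.2% lower. The 12 were Psma2, Psma6, Psmb4, Psmb6, Psmb7, Psmc2, Psmc6, Psmd1, Psmd11, Psmd12, Psmd14 and Psme3. The log2 fold change was positive for 33 of 37 subunits, against 48.5% of all tested genes. Its median over the subunits was 0.27, and its median over all tested genes was -0.02. The libraries of the groups did not overlap for 25 of 37 subunits (67.6%), compared with 57.5% of all tested genes. The changes were small, from -0.46 for Psmb10 to 0.69 for Psmd11.

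These directions depend on how the libraries were scaled. The subunits took 0.421%, 0.391% and 0.447% of the counts in genes with FGF-2 and 0.477%, 0.434% and 0.405% in serum alone, which overlap. The 20 most abundant genes of each library took 12.9%, 13.2% and 14.1% of its counts with FGF-2, compared with 7.51%, 7.56% and 8.64% in serum alone. Scaled by library totals alone, the median log2 fold change of the subunits was -0.07 while that of all tested genes was -0.36, and 1 subunit was called higher and 5 lower. The median of the subunits stood 0.30 above that of all tested genes with TMM, a difference that scaling leaves nearly as it is by construction, since it shifts all genes alike. With upper-quartile scaling 4 subunits were higher (Psmc6, Psmd11, Psmd14 and Psme3) and 3 lower (Psmb10, Psme1 and Psme2).

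**Figure D1:**
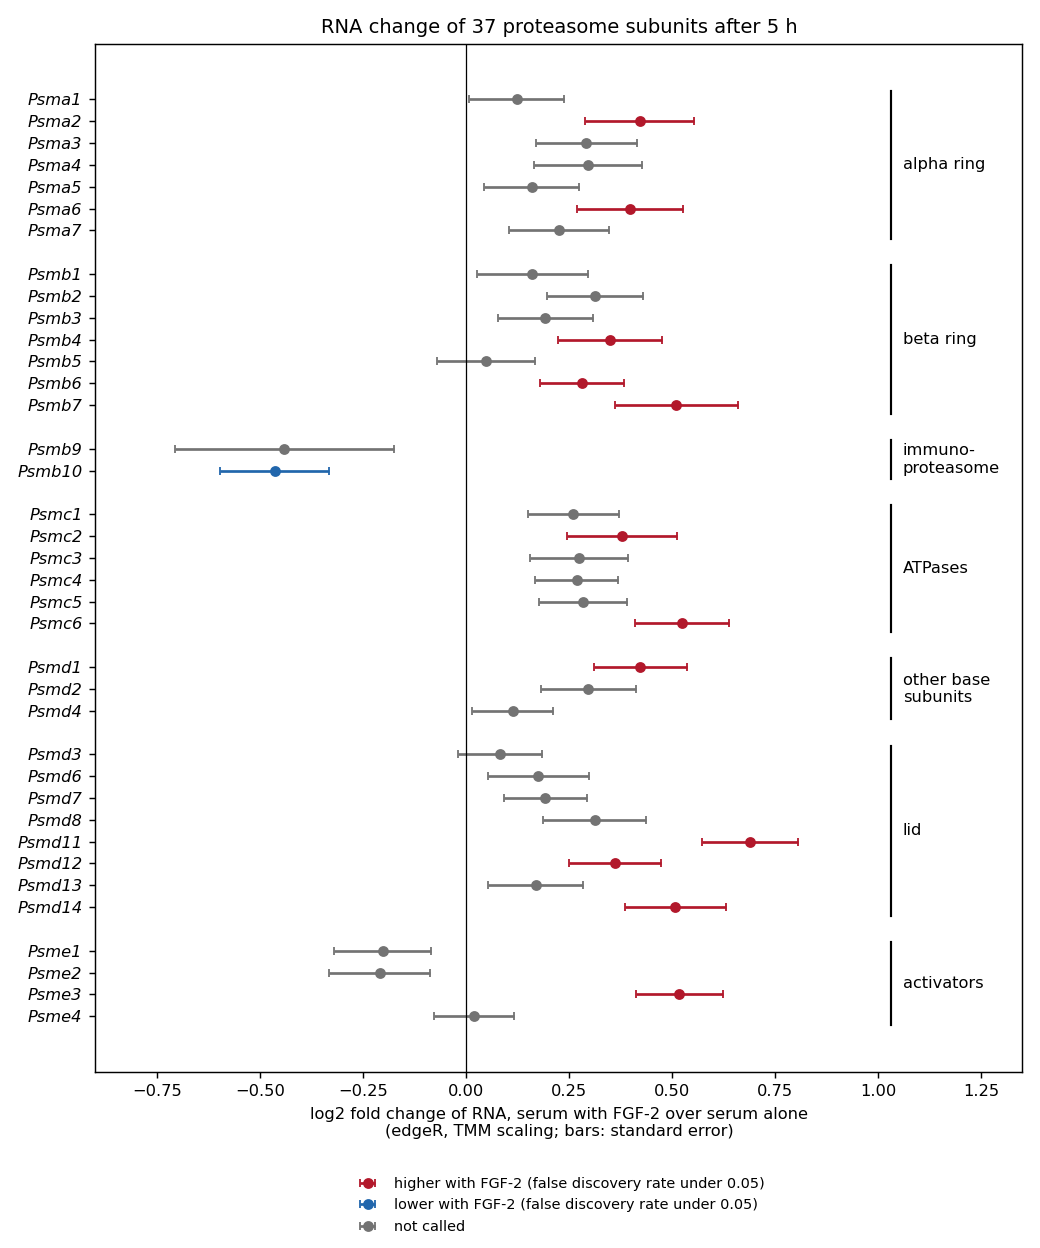
Log2 fold change of RNA (serum with FGF-2 over serum alone, edgeR with TMM scaling) for the 37 tested subunits, grouped by place in the particle, with bars of 1 standard error and colours for calls at a false discovery rate of 0.05. Most points of the core, base and lid lie right of 0, and Psmb9, Psmb10, Psme1 and Psme2 lie left of it; scaled by library totals alone, 22 of the 33 positive values change sign.

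All 7 alpha subunits had positive log2 fold changes, from 0.12 to 0.42, and 2 were called, where 22.1% of all tested genes were higher. Psma2 had 105, 97.6 and 132 CPM with FGF-2, against 90.9, 77.6 and 80.7 CPM in serum alone. The 3 libraries with FGF-2 all lay above the 3 of serum alone, although the gap between the nearest 2 was small. Its log2 fold change was 0.42 ± 0.13 (SE, edgeR adjusted p = 0.0249). Psma6, a subunit of the gated outer ring, had 109, 92.0 and 121 CPM with FGF-2, against 88.7, 81.7 and 73.2 CPM in serum alone. These groups did not overlap either, and the log2 fold change was 0.40 ± 0.13 (SE, edgeR adjusted p = 0.0281). The other 5 were Psma1, Psma3, Psma4, Psma5 and Psma7, with log2 fold changes of 0.12 to 0.30 that missed the threshold. Of these, Psma3 and Psma4 had groups that did not overlap, which held for 57.5% of all tested genes.

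Of the beta ring, Psmb4, Psmb6 and Psmb7 rose. Psmb7, which carries the trypsin-like active site, changed most in the ring, with 159, 136 and 205 CPM with FGF-2, against 123, 106 and 121 CPM in serum alone. The third library with FGF-2 was far above the other 2, and the lowest still exceeded every library of serum alone. Its log2 fold change was 0.51 ± 0.15 (SE, edgeR adjusted p = 0.0188). Psmb4, a structural subunit, had 152, 154 and 189 CPM with FGF-2, against 146, 121 and 122 CPM in serum alone. The groups were separate by a narrow margin, and the log2 fold change was 0.35 ± 0.13 (SE, edgeR adjusted p = 0.0441). Psmb6, with the caspase-like site, averaged 89.5 ± 5.53 CPM with FGF-2 and 73.5 ± 3.23 CPM in serum alone (SD, n = 3 each), and its log2 fold change was 0.28 ± 0.10 (SE, edgeR adjusted p = 0.0445). Psmb5, with the chymotrypsin-like site, did not follow: it averaged 35.4 ± 2.74 CPM with FGF-2 and 34.0 ± 3.30 CPM in serum alone, with overlapping libraries and a log2 fold change of 0.05 ± 0.12 (SE, edgeR adjusted p = 0.761). Psmb1, Psmb2 and Psmb3 had log2 fold changes of 0.16, 0.31 and 0.19 and were not called, Psmb2 by a narrow margin (edgeR adjusted p = 0.0502).

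The 6 ATPases of the base, which unfold substrates, all had positive log2 fold changes, from 0.26 to 0.52. Of the 6, 2 were called, where 22.1% of all tested genes were higher. For each of the 6 the libraries of the groups did not overlap, which held for 57.5% of all tested genes. Psmc6 had 94.5, 94.6 and 114 CPM with FGF-2, against 74.3, 66.8 and 69.5 CPM in serum alone. All 3 libraries with FGF-2 were well above those of serum alone, and the log2 fold change was 0.52 ± 0.11 (SE, edgeR adjusted p = 0.00447). Psmc2 had 97.6, 99.2 and 121 CPM with FGF-2, against 93.7, 77.1 and 72.7 CPM in serum alone. Its highest library of serum alone came close to the lowest with FGF-2, and the log2 fold change was 0.38 ± 0.13 (SE, edgeR adjusted p = 0.0394). Psmc1, Psmc3, Psmc4 and Psmc5 had log2 fold changes of 0.26 to 0.28 and were not called, with adjusted p of 0.0504 and 0.0505 for Psmc4 and Psmc5. Among the other subunits of the base, Psmd1, a large scaffold, had 285, 280.3 and 315 CPM with FGF-2, against 243, 209 and 205 CPM in serum alone. The groups were clearly apart, and the log2 fold change was 0.42 ± 0.11 (SE, edgeR adjusted p = 0.0122). Psmd2, the second scaffold of the base, had a log2 fold change of 0.30 ± 0.12 (SE, edgeR adjusted p = 0.0578) and the ubiquitin receptor Psmd4 one of 0.11 ± 0.10 (SE, edgeR adjusted p = 0.368). An annotated neighbour, Htr2b, lies within the span of Psmd1, and how the counting treated strand is not given in the sources used here.

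The lid held the largest increase. Psmd11 (chr11:80428615-80473248, GRCm38), which ties the lid to the core, had 112, 108 and 137 CPM with FGF-2, against 75.0, 70.6 and 75.7 CPM in serum alone. Its libraries were the most clearly separated of the lid, with nothing in serum alone near the values with FGF-2. The log2 fold change was 0.69 ± 0.12 (SE, edgeR adjusted p = 0.00114), a 1.61-fold difference. Psmd14, the deubiquitinase that cuts ubiquitin chains off substrates as they enter, had 93.4, 87.7 and 111 CPM with FGF-2, against 73.4, 69.3 and 61.7 CPM in serum alone. These groups did not overlap, and its log2 fold change was 0.51 ± 0.12 (SE, edgeR adjusted p = 0.00748). Psmd12, a structural subunit, had 119, 111 and 135 CPM with FGF-2, against 103, 92.0 and 88.8 CPM in serum alone. Its groups were apart by less than the spread within either, and the log2 fold change was 0.36 ± 0.11 (SE, edgeR adjusted p = 0.0242). Psmd3, Psmd6, Psmd7, Psmd8 and Psmd13 had log2 fold changes of 0.08 to 0.31 and were not called. Psmd7, the partner of Psmd14 in the lid, averaged 179 ± 11.6 CPM with FGF-2 and 157 ± 5.74 CPM in serum alone (SD, n = 3 each). Its groups did not overlap, and the log2 fold change was 0.19 ± 0.10 (SE, edgeR adjusted p = 0.141).

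Of the 3 immunoproteasome subunits 1 was lower with FGF-2, 1 was not called and 1 was not tested. Among all tested genes 24.2% were lower, and for 57.5% the libraries of the groups did not overlap. Psmb10 (chr8:105935728-105938392), which takes the place of Psmb7, had 30.2, 26.0 and 31.7 CPM with FGF-2, against 42.5, 43.5 and 34.2 CPM in serum alone. Every library with FGF-2 was below every library of serum alone, and serum library 3 was the nearest. Its log2 fold change was -0.46 ± 0.13 (SE, edgeR adjusted p = 0.0165). Psmb9 (chr17:34182030-34187330), which takes the place of Psmb6, had 5.07, 2.74 and 5.07 CPM with FGF-2, against 5.83, 5.64 and 5.64 CPM in serum alone. These groups did not overlap, with FGF-2 library 2 far below the rest, but the log2 fold change was -0.44 ± 0.27 (SE, edgeR adjusted p = 0.196). Psmb8 (chr17:34198195-34201454), which takes the place of Psmb5, had 0.390, 0.265 and 0.181 CPM with FGF-2, against 0.287, 0.213 and 1.16 CPM in serum alone. It was counted 8 times with FGF-2 and 12 times in serum alone over all libraries and did not pass the low-count filter. Without FGF-2 library 2, serum library 1 or serum library 2, Psmb10 was no longer called, with log2 fold changes of -0.56 to -0.38 over the 6 fits that each left out 1 library.

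The activators were split. Psme3 (chr11:101316213-101323537), which encodes the nuclear activator PA28 gamma, had 255, 249.9 and 280.3 CPM with FGF-2, against 182, 172 and 194 CPM in serum alone. The groups were far apart, and the log2 fold change was 0.52 ± 0.10 (SE, edgeR adjusted p = 0.00301). Psme1 and Psme2 encode the alpha and beta subunits of cytoplasmic PA28, are induced by interferon gamma and lie close together at chr14:55578494-55581527 and chr14:55587440-55591101. Psme1 had 97.5, 82.1 and 101 CPM with FGF-2, against 118, 106 and 98.9 CPM in serum alone. Psme2 had 43.2, 41.2 and 42.2 CPM with FGF-2, against 53.9, 50.8 and 41.2 CPM in serum alone. In both genes serum library 3 fell among the libraries with FGF-2, so the groups overlapped. The log2 fold change was -0.20 ± 0.12 (SE, edgeR adjusted p = 0.184) for Psme1 and -0.21 ± 0.12 (SE, edgeR adjusted p = 0.18) for Psme2, and neither was called. Psme4, which encodes the nuclear activator PA200, had 106, 103 and 106 CPM with FGF-2, against 111, 102 and 97.9 CPM in serum alone. Its groups overlapped, and the log2 fold change was 0.02 ± 0.10 (SE, edgeR adjusted p = 0.889); the sign of this small value turned with the scaling. Erlec1 overlaps the span of Psme4.

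Ratios between subunits within a library do not depend on scaling, and 9 were computed. Psmb10 had 19.04, 19.13 and 15.46 reads per 100 reads of Psmb7 with FGF-2, against 34.7, 40.9 and 28.2 in serum alone. Psmb9 had 5.72, 3.24 and 5.31 reads per 100 reads of Psmb6 with FGF-2, against 7.61, 7.66 and 8.04 in serum alone. In both ratios all libraries with FGF-2 were below all of serum alone. Psme1 and Psme2 together had 55.2, 49.3 and 51.2 reads per 100 reads of Psme3 with FGF-2, against 94.4, 90.9 and 72.1 in serum alone, again without overlap. The 3 immunoproteasome subunits together had 12.70, 11.40 and 10.90 reads per 100 of their standard counterparts with FGF-2, against 20.52, 23.21 and 18.38 in serum alone. Each of these 4 ratios reached p = 0.1 in an exact two-sided permutation test (adjusted p = 0.225 over the 9), and 0.1 is the smallest that 3 libraries against 3 can give. The ratios of Psmb10 to Psmb7 and Psmb9 to Psmb6 could not have overlapped. Psmb9 and Psmb10 had already lain lower, and Psmb6 and Psmb7 higher, without overlap. The ratio of the 3 immunoproteasome subunits together includes the same genes. The libraries of Psme3 were already so far apart that the ratio of Psme1 and Psme2 to Psme3 could not have overlapped either. The 4 ratios are therefore not separate results. The proportions within the standard particle overlapped between the groups. The alpha ring had 91.1 ± 1.67 reads per 100 of the beta ring with FGF-2 and 93.1 ± 1.69 in serum alone, and the 19S genes had 195 ± 12.8 per 100 of the 20S genes with FGF-2 and 194 ± 1.74 in serum alone (SD, n = 3 each). Psme1 had 222 ± 20.9 reads per 100 of Psme2 with FGF-2 and 222 ± 16.3 in serum alone. The ratio of the lid to the ATPases and that of Psmb8 to Psmb5 also overlapped between the groups.

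**Figure D2:**
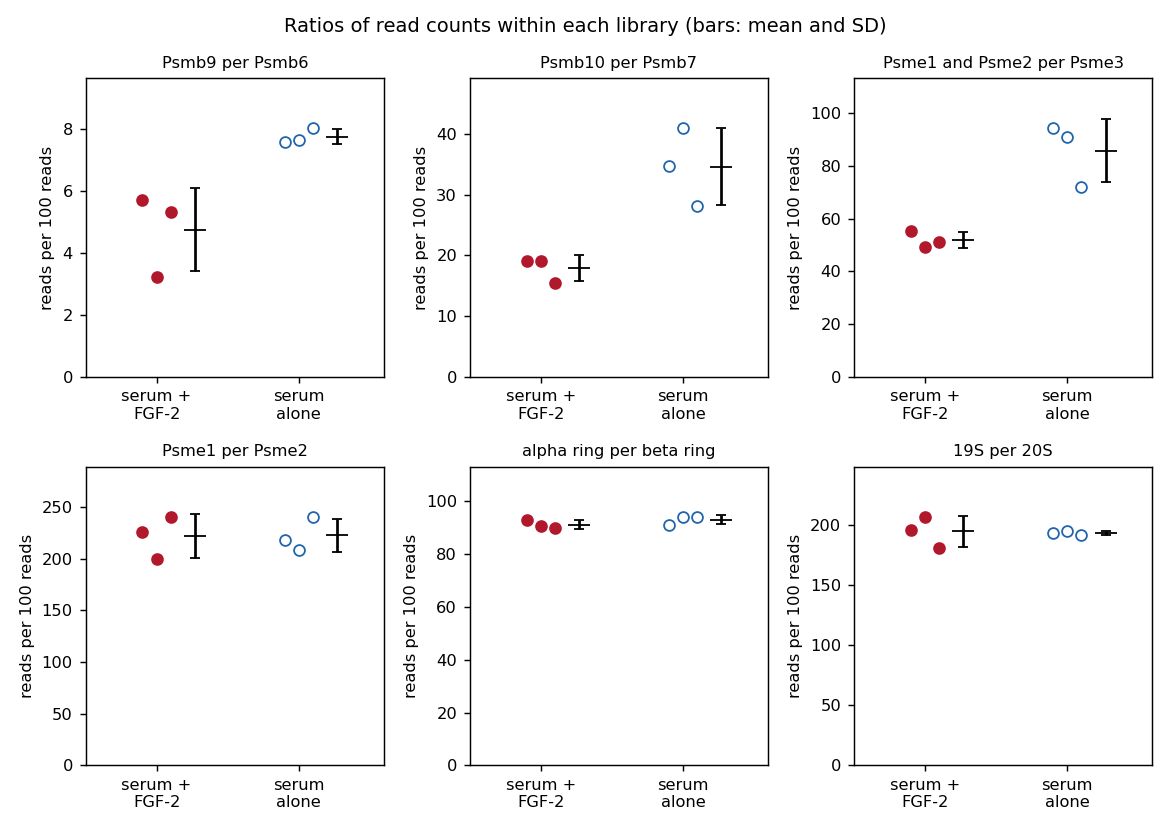
Reads of one gene or group per 100 reads of another within each RNA library (vertical axes from 0), for serum with FGF-2 (filled points, n = 3) and serum alone (open points, n = 3), with the mean and SD beside them. The 3 upper ratios do not overlap between the groups and are lower with FGF-2, which the levels of their single genes had already fixed. The 3 lower ones overlap.

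Libraries of one group also differed. With FGF-2, library 3 was the highest of its group for 30 of 37 subunits (81.1%) and for 41.7% of all tested genes, and library 2 was the lowest for 31 subunits (83.8%) and for 32.8% of all tested genes. In serum alone, library 1 was the highest for 30 subunits (81.1%) and for 32.5% of all tested genes. Without FGF-2 library 3 the number of subunits called higher was 6, and without serum library 2 it was 4, namely Psmc6, Psmd11, Psmd14 and Psme3. These 4 were called in each of the 6 fits that left out 1 library. Psmb7 and Psmd1 were lost in 1 of the 6 (serum library 2), Psma2 in 2 (FGF-2 library 3 or serum library 2) and Psmb6 in all 6. Psma6 and Psmd12 were lost without FGF-2 library 1 or 3 or without serum library 2 or 3, Psmc2 without FGF-2 library 2 or 3 or without serum library 2 or 3, and Psmb4 in all but the fit without serum library 1.

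**Figure D3:**
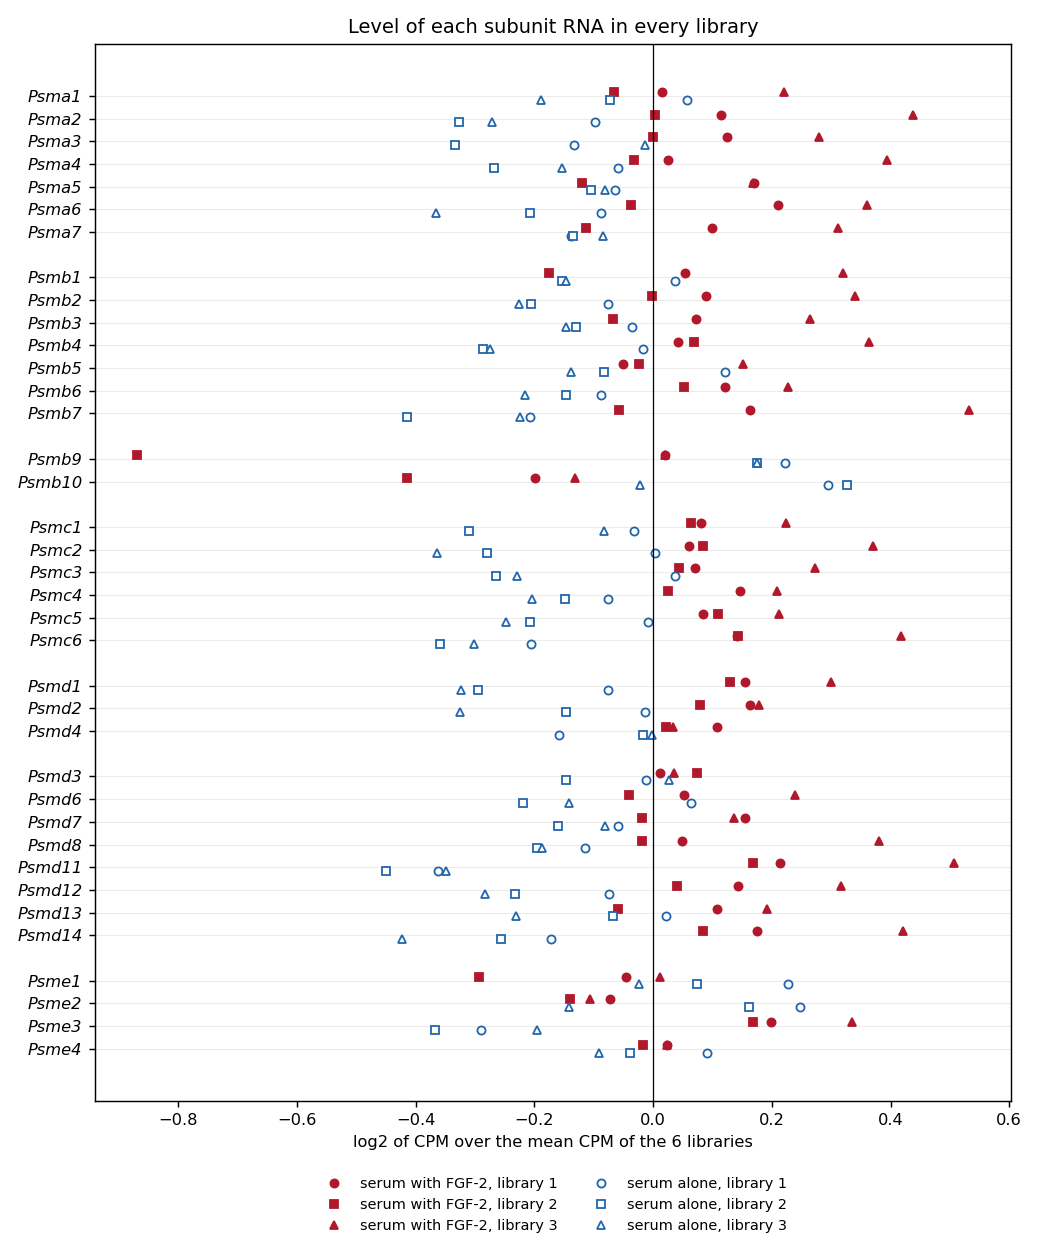
Level of each tested subunit in each of the 6 RNA libraries, as log2 of its CPM over the mean CPM of the 6 libraries; filled symbols are serum with FGF-2 and open symbols serum alone, with 1 shape per library number. FGF-2 library 3 (filled triangles) is the highest of its group for 30 of 37 subunits, and the order of the groups is turned for Psmb9 and Psmb10; scaled by library totals alone, 22 of the 33 positive changes change sign.

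The genes that help build and serve the proteasome were read from lists of their own. Their counts stand against the 22.1% of all tested genes that were higher and the 24.2% that were lower. Of 8 assembly chaperones 6 passed the filter, with 1 higher and 1 lower. Pomp, the maturation factor of the core that the beta subunits need, had 152, 137 and 175 CPM with FGF-2, against 101, 87.7 and 90.1 CPM in serum alone. All libraries with FGF-2 were far above serum alone, and its log2 fold change was 0.73 ± 0.12 (SE, edgeR adjusted p = 0.00096). Psmg2, part of a chaperone pair for the alpha ring, had 23.2, 29.4 and 24.6 CPM with FGF-2, against 41.4, 37.1 and 35.2 CPM in serum alone. It went the other way without overlap, and the log2 fold change was -0.56 ± 0.13 (SE, edgeR adjusted p = 0.00591); its partner Psmg1 had a log2 fold change of -0.29 ± 0.13 (SE, edgeR adjusted p = 0.0971). Of 11 proteins that bind the proteasome, 5 were higher (where 22.1% of all tested genes were) and none was lower (where 24.2% were): Adrm1, Usp14, Txnl1, Zfand5 and Zfand2a. The call of Usp14 was lost in 5 of the 6 fits that left out 1 library. The largest log2 fold changes were 0.51 ± 0.12 (SE, edgeR adjusted p = 0.00627) for the redox protein Txnl1, 0.50 ± 0.10 (SE, edgeR adjusted p = 0.00235) for the ubiquitin receptor Adrm1 and 0.48 ± 0.11 (SE, edgeR adjusted p = 0.0073) for Zfand2a, a stress-induced binding partner. Of 6 shuttle factors, which carry ubiquitinated proteins to the proteasome, 2 were higher, Ubqln1 with a log2 fold change of 0.34 ± 0.09 (SE, edgeR adjusted p = 0.0155) and Rad23b with 0.32 ± 0.11 (SE, edgeR adjusted p = 0.0354); leaving out 1 library lost these calls in 2 and 4 of the 6 fits.

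Among 6 regulators of proteasome genes, 2 were higher and 1 lower, where 22.1% of all tested genes were higher and 24.2% lower. Nfe2l1 itself had 516, 530.0 and 463 CPM with FGF-2, against 434, 479 and 567 CPM in serum alone. Its groups overlapped, and its log2 fold change was 0.03 ± 0.13 (SE, edgeR adjusted p = 0.875), a value whose sign turned with the scaling. Mafk, a small Maf protein that pairs with Nfe2l1 and Nfe2l2 on DNA, had 128, 124 and 154 CPM with FGF-2, against 52.6, 50.6 and 86.0 CPM in serum alone. It was clearly higher with FGF-2, and the log2 fold change was 1.11 ± 0.20 (SE, edgeR adjusted p = 0.00252); the related Mafg had 0.32 ± 0.12 (SE, edgeR adjusted p = 0.0493), a call lost with DESeq2, limma-voom and 5 of the 6 fits that left out 1 library. Ngly1, the enzyme that removes sugar chains from Nfe2l1 protein during its activation, had 3.80, 2.47 and 3.98 CPM with FGF-2, against 8.51, 6.60 and 6.97 CPM in serum alone. It was low in all libraries and lower with FGF-2, with a log2 fold change of -1.14 ± 0.24 (SE, edgeR adjusted p = 0.00415). Of 6 genes of ubiquitin and its activation, 5 were tested and 4 were higher, where 22.1% of all tested genes were. The largest were Uba6, an activating enzyme, with 0.51 ± 0.10 (SE, edgeR adjusted p = 0.00309), the ubiquitin fusion gene Rps27a with 0.48 ± 0.12 (SE, edgeR adjusted p = 0.0109), and Uba1, the main activating enzyme, with 0.44 ± 0.11 (SE, edgeR adjusted p = 0.00903).

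In the list of antigen presentation and interferon response, 5 of 9 genes were tested, with 1 higher and 2 lower, where 22.1% of all tested genes were higher and 24.2% lower. Irf1, a transcription factor that drives Psmb8, Psmb9 and Psmb10 in the response to interferon, had 5.85, 5.56 and 3.80 CPM with FGF-2, against 27.2, 28.3 and 17.4 CPM in serum alone. All libraries with FGF-2 were far below serum alone, and the log2 fold change was -2.23 ± 0.23 (SE, edgeR adjusted p = 7.47e-05). Tap1, which encodes a peptide transporter and lies beside Psmb9 on chromosome 17, had 30.1, 28.9 and 31.7 CPM with FGF-2, against 60.6, 73.1 and 98.6 CPM in serum alone. It too was lower without overlap, with a log2 fold change of -1.35 ± 0.17 (SE, edgeR adjusted p = 0.000231). B2m, the light chain of MHC class I, was higher at 0.35 ± 0.12 (SE, edgeR adjusted p = 0.0411). That call was lost in 5 of the 6 fits that left out 1 library, with upper-quartile scaling, library totals, the filter at 5 CPM and the replicate block. Tap2 and Tapbp were not called, Nlrc5 was near 0, and H2-K1 and H2-D1 were listed at 0. The tissue-specific subunits Psma8 of the testis and Psmb11 of the thymus had at most 1 count in any library.

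The promoters were read for 4 motifs on both strands, from 250 bases before to 50 after each RefSeq start (GRCm38.p6, the build the files call mm10). The table held 35 starts for 32 of the 38 genes, without Psmb1, Psmb2, Psmb7, Psmc3, Psmd3 and Psmd7. The ETS-type motif CCGGAAG was present at 13 starts of 12 genes, or 37.1% of these starts. It occurred in 8.86% of all 32851 promoters of the table and in 18.1% of the 9895 promoters of tested genes. ETS proteins are a family of transcription factors, some of which are phosphorylated by kinases downstream of growth factor receptors. Among genes higher in RNA 6 of 11 had the motif, and among the other subunits 6 of 21, a split that was not tested. The motif nearest the start is shown for the 6 that were higher, in 30 bases of the gene's strand with the match in capitals.
Psma6, chr12:55398812-55398841, plus strand: ccgccggtgctCCGGAAGcagtagccataa
Psmc2, chr5:21786712-21786741, plus strand: gcgcggagctaCTTCCGGtggggaagagaa
Psmc6, chr14:45329713-45329742, plus strand: aggcgggccagCCGGAAGgggcggagccag
Psmd11, chr11:80428593-80428622, plus strand: cgagggcgggtCTTCCGGgtgtgtgtttcc
Psmd12, chr11:107479500-107479529, plus strand: tgagcgggcgaCTTCCGGtgcgagtgacga
Psme3, chr11:101316204-101316233, plus strand: ctgtgacgcaaCTTCCGGcgtgagcggcga
In Psmd11 the first base of the match lies 11 bases before the start, in Psmd12 17 bases and in Psmc2 24 bases before it, and in Psme3 it is base 3 of the transcript. The other 6 genes with the motif were Psmc1, Psmd2, Psmd4, Psmd6, Psmd13 and Psme4. A match describes these letters and was not tested as a binding site.

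The other motifs were no more common than in promoters at large, or rested on few genes. The antioxidant response element core TGACNNNGC, the element that Nfe2l1 and Nfe2l2 bind with small Maf proteins, was found at 14.3% of the starts, where 12.4% of all promoters and 14.6% of those of tested genes had it. It was in Psmb5, Psmb6, Psmc6, Psmd12 and Psme4, which are 3 of the 11 genes higher in RNA and 2 of the 21 others. The CCAAT box was at 34.3% of the starts, where 37.4% of all promoters had it, and in 5 of the 11 genes and 7 of the 21. The core of the interferon-stimulated response element was in Psmb3, Psmd4 and Psme1, or 8.57% of the starts, where 3.44% of all promoters had it. These are 0 of the 11 genes and 3 of the 21. The match in Psme1, 10 bases into the transcript, is shown in capitals because Psme1 is the interferon-induced activator described above.
Psme1, chr14:55578493-55578522, plus strand: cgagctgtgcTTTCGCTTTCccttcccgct
The 250 bases before the start are given for the subunit that rose most and for the one that fell, with matches to any of the 4 motifs in capitals.
Psmd11, chr11:80428365-80428614, plus strand: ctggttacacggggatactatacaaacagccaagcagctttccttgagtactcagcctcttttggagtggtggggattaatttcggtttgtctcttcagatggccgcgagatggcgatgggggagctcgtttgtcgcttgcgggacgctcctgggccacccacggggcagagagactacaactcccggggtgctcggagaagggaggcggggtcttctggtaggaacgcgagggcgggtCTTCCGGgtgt
Psmb10, chr8:105938393-105938642, minus strand: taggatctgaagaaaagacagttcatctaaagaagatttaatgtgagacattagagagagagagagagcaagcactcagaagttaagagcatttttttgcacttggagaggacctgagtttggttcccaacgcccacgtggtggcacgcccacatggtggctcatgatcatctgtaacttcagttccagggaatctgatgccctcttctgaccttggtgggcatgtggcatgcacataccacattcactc
The stretch of Psmd11 holds the ETS-type match in its last bases, and that of Psmb10 holds none of the 4.

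At the promoters, H3K27ac was present at nearly all subunits and changed little. The authors' deposited region table holds 78 regions tied to 36 of the 38 genes by symbol, and none for Psma4 and Psmb8. Of these, 41 lie within 1 kb of a start, and none of the 41 was called at a false discovery rate of 0.05, where 2.02% of all promoter regions in that table were higher and 0.681% lower. Without adjustment, 1 of the 41 promoter regions (2.44%) had p under 0.05 in that table, 2 (4.88%) with limma and 6 (14.6%) with edgeR on recovered reads, where 8.45%, 10.2% and 20.3% of all promoter regions did. Limma called 1 of them lower, a small region at chr11:98681674-98682394 beside the main promoter region of Psmd3, with signals of 23.8 and 7 with FGF-2, against 35.9 and 26.7 in serum alone (limma adjusted p = 0.0418). The libraries of the groups did not overlap, in either direction, for 11 of the 41, where 4242 of all 12484 promoter regions did not. The median log2 fold of the 41 was 0.06. Taking each gene's strongest promoter region, 24 of 36 had a positive log2 fold in the authors' deposited table, 10 a negative one, and 2 were at 0. MACS2 peaks of the authors covered the RefSeq start window in all 4 libraries for 29 of 32 genes. Within that window Psmb8 and Psmd8 had none in any library, Psmc4 had one in serum library 2 only, and Psma4 had peaks in all 4. The promoter region of Psmd8, which lies just outside the window, had signals of 410 and 392 with FGF-2, against 441 and 361 in serum alone. That of Psmc4, which overlaps the window by 13 bases, had 116 and 122 with FGF-2, against 122 and 106 in serum alone. In serum alone, library 1 had more signal than library 2 at each of the 36 promoters. Without serum library 1 the median log2 fold of the promoter regions was 0.29, and without serum library 2 it was -0.13.

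Subunits with higher RNA did not have a called gain of promoter H3K27ac. Of the 12, 10 had a positive log2 fold in the authors' deposited table, from -0.14 for Psma6 to 0.43 for Psmb7, with a median of 0.09, and 14 of the other 24 were positive. At the promoter of Psmb7 the signal, in scaled reads, was 286 and 236 with FGF-2, against 212 and 175 in serum alone. Both libraries with FGF-2 were above both of serum alone, but the log2 fold of 0.43 had a false discovery rate of 0.257 in the authors' deposited table. At Psmd11, whose RNA rose most, it was 406 and 410.0 with FGF-2, against 461 and 333 in serum alone. These overlapped, with a log2 fold of 0.04. The signal at Psmd12 was 171 and 164 with FGF-2, against 138 and 119 in serum alone, without overlap and with a log2 fold of 0.38 (false discovery rate 0.412).

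Among the promoters of other members with higher RNA, Psmc6 had 132 and 171 with FGF-2, against 134 and 104 in serum alone. Psmc2 had 357 and 409 with FGF-2, against 347 and 304 in serum alone. Only the groups of Psmc2 were apart, and the log2 folds in the authors' deposited table were 0.34 and 0.23. Psme3 had 357 and 373 with FGF-2, against 394 and 303 in serum alone. Psmd14 had 208 and 217 with FGF-2, against 247 and 160.5 in serum alone. Psmd1 had 273 and 248 with FGF-2, against 300.2 and 207 in serum alone. In these 3 the groups overlapped, with serum library 1 the highest of the 4. Psma2 had 207 and 189 with FGF-2, against 234 and 174 in serum alone. Psma6 had 255 and 269 with FGF-2, against 322 and 256 in serum alone. Psmb4 had 204 and 235 with FGF-2, against 227 and 181 in serum alone. These 3 overlapped as well, with log2 folds of -0.04, -0.14 and 0.10. Psmb6, the last of the 12, had a log2 fold of 0.39. The 20 subunits whose RNA value was positive but not called ranged in log2 fold of promoter signal from -0.07 for Psma3 to 0.37 for Psmd2.

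The 4 subunits with negative RNA values, Psmb9, Psmb10, Psme1 and Psme2, had negative promoter folds too. Psme2 had 45.6 and 59.0 with FGF-2, against 115 and 63.5 in serum alone. Psmb9 had 85.6 and 85.0 with FGF-2, against 122 and 104 in serum alone. Both were lower with FGF-2 without overlap, although serum library 2 came close to the libraries with FGF-2 at Psme2. The log2 folds in the authors' deposited table were -0.77 (p = 0.0393, false discovery rate 0.209) and -0.41 (false discovery rate 0.486). Fitted with edgeR on the recovered reads, the promoter of Psme2 passed the threshold (adjusted p = 0.0331) and that of Psmb9 did not (adjusted p = 0.0624). That fit was chosen after seeing the data. It called 2726 of all 40772 regions lower, where the authors' deposited table called 670. Psmb10 had 319.5 and 357 with FGF-2, against 414 and 294 in serum alone. Psme1 had 138 and 163 with FGF-2, against 178 and 132 in serum alone. Their groups overlapped, with log2 folds of -0.07 and -0.04. The promoter of Psme4 had 178 and 189 with FGF-2, against 229 and 149.6 in serum alone and a log2 fold of -0.05.

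**Figure D4:**
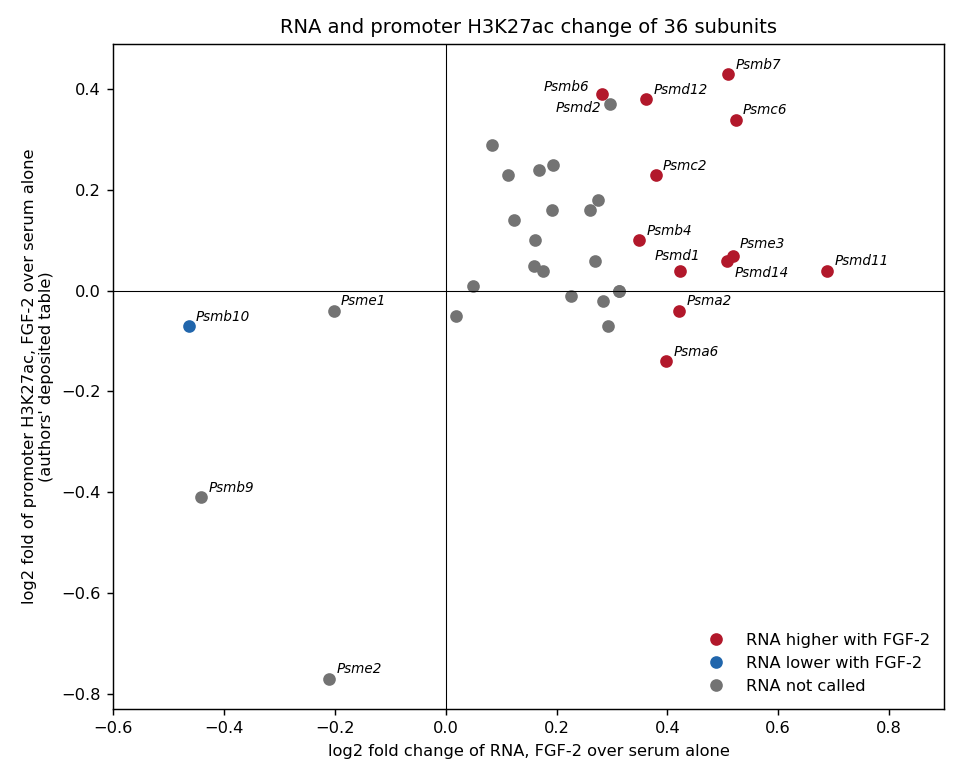
Log2 fold change of RNA (horizontal) and log2 fold of H3K27ac at the strongest promoter region in the authors' deposited table (vertical), both FGF-2 over serum alone, for 36 subunits coloured by their RNA call. No promoter was called; the 12 points with higher RNA range from -0.14 to 0.43 on the vertical axis, and Psmb9, Psmb10, Psme1 and Psme2 are below 0 on both axes (scaled by library totals alone, the RNA values of 21 of the 36 change sign).

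Away from promoters, 6 regions tied to 3 subunits gained H3K27ac in the authors' deposited table and none lost it. They are 16.2% of the 37 regions of the subunits away from promoters, where 11.1% of all such regions were higher and 2.07% lower. The 6 are not separate units, since the 3 of Psmb7 lie side by side and so do the 2 of Psmd7. Of all 78 regions of the subunits they are 7.69%, and of all 40772 regions 8.33% were higher and 1.64% lower. Of the 6, 3 lie in intron 5 of 7 of Psmb7 (mm10). The one at chr2:38619489-38622852 had signals of 350 and 297 with FGF-2, against 124 and 135 in serum alone, a log2 fold of 1.32 (false discovery rate 5.36e-07). Its neighbours at chr2:38617310-38618244 and chr2:38618503-38619345 had log2 folds of 2.84 and 2.53. At chr2:38617310-38618244 the signals were 34.2 and 38 with FGF-2, against 0.92 and 9.19 in serum alone, and at chr2:38618503-38619345 they were 64.7 and 51, against 8.29 and 11.7 in serum alone. The 0.92 equals the floor of 1 read in serum library 1, so the log2 fold of 2.84 rests partly on that floor. None of these groups overlapped, which the selection of the regions by their call made likely. Groups did not overlap in 23 of the 37 regions of the subunits away from promoters and 16770 of all 28288 such regions. MACS2 peaks lay in both smaller regions with FGF-2 only, and in the largest in all 4 libraries. The peaks were called on the same libraries as the signals and are not separate support. The start of Psmb7 is 21054 bases from the largest region.

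In Psmd1 the region lies in intron 18 of 24, at chr1:86123779-86124449. It had 52.3 and 38 with FGF-2, against 11.97 and 14.21 in serum alone, with a log2 fold of 1.79 (false discovery rate 0.0118 in the authors' deposited table). MACS2 peaks lay there in both libraries with FGF-2 and in serum library 1. The other 2 were annotated downstream of Psmd7. The region at chr8:107577860-107578588 had 39.9 and 55 with FGF-2, against 0.92 and 0.84 in serum alone, values of serum alone that equal the floor of 1 read. The region at chr8:107578799-107579342 had 43.7 and 44 with FGF-2, against 7.37 and 0.84 in serum alone, where 0.84 is again the floor. Both were far higher with FGF-2, and MACS2 peaks were present there in the libraries with FGF-2 only. Such regions may have entered the region table through those libraries alone, so the missing peaks in serum alone are not separate support. RNA of Psmb7 and Psmd1 was higher, and that of Psmd7 was not called.

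The annotation ties a region to the nearest gene, and other genes lie within 100 kb. Near the regions of Psmb7, Nek6 had a log2 fold change of RNA of -0.55 ± 0.12 (SE, edgeR adjusted p = 0.00447) and Nr5a1 one of -0.06 ± 0.13 (SE, edgeR adjusted p = 0.744). Near that of Psmd1, Armc9 had -0.95 ± 0.13 (SE, edgeR adjusted p = 0.000289). Near those of Psmd7, the ubiquitin ligase gene Wwp2 had 0.35 ± 0.12 (SE, edgeR adjusted p = 0.0310). The call of Wwp2 was lost in 4 of the 6 fits that left out 1 library. Which gene a region acts on was not tested.

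**Figure D5:**
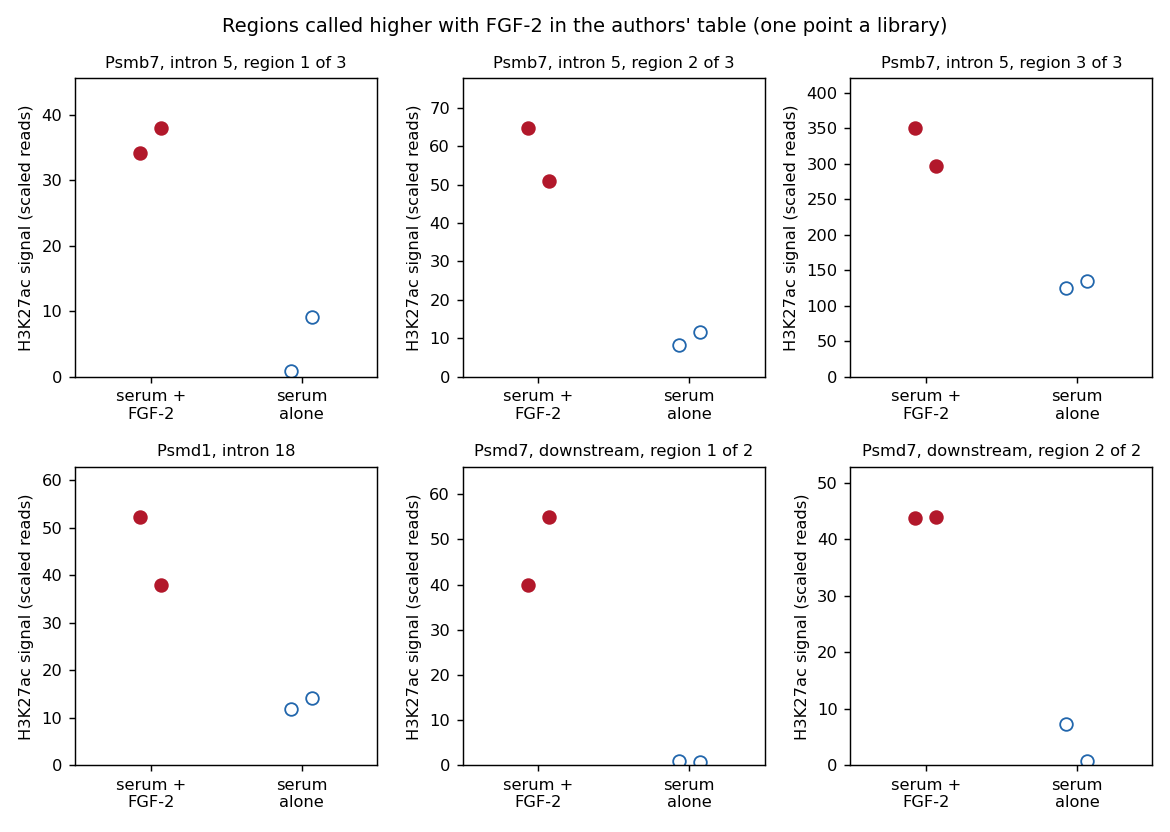
H3K27ac signal (scaled reads, vertical axes from 0) in each library of serum with FGF-2 (filled, n = 2) and serum alone (open, n = 2) for the 6 regions of Psmb7, Psmd1 and Psmd7 called higher in the authors' deposited table. In all 6 both libraries with FGF-2 lie above both of serum alone, which their selection by that call made likely. Groups did not overlap, in either direction, in 51.5% of all regions.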

How the data were processed

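The authors deposited RNA values as unnormalized counts of reads for each gene symbol, made with HTSeq. The submitters' processing notes name STAR 2.5.2a, HTSeq 0.10.0, MACS2 2.2.6, DiffBind, ChIPseeker, DESeq2 and build mm10. Listed reads that fell outside genes or were ambiguous (37.0% to 43.2%) were left out. The test was edgeR 4.0.16 in R 4.3.3 (quasi-likelihood, TMM, filterByExpr, all 6 libraries, no covariate, Benjamini-Hochberg at 0.05). SEs came from the absolute log2 fold change divided by the root of F. Tested on simulated data over 10308 genes, it found 84.7% of the 2-fold changes and 96.0% of the 4-fold ones and called 20 unchanged genes. The simulation changed 200 genes, as many up as down. Changes as small as those of the subunits, at most 1.61-fold, and the effect of scaling were not simulated.

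The H3K27ac table that the authors deposited lists for each region a log2 fold, a p-value with its false discovery rate, and 1 signal for each library, per the file headers. These signals are reads divided by a factor per library, and at least 99.995% of them came out whole within 0.1 reads. How that table's test was set up is not stated. MACS2 was run on each library with its own input, per the file headers, which list fold enrichment (a ratio) and −log10 q as the authors' values. The H3K27ac libraries held 12447135 and 11840994 fragments with FGF-2 and 12856806 and 14156846 in serum alone, with 12241177 to 110273836 in the inputs (the largest being that of serum library 2). The authors' deposited DESeq2 table of log2 fold changes and adjusted p-values had 15 subunits higher and 1 lower.

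The members and lists were chosen with earlier results of these data known. All 38 subunits are named. Values per library are given for the called subunits of smallest p, up to 12, for all immunoproteasome and activator subunits, and for the largest change in each group. Up to 3 called genes per pathway list are given with values, with Nfe2l1 always; Psmg1, Armc9, Nek6, Nr5a1, Wwp2, the called markers and the promoter region of Psmd3 were added after their values were seen. Some genes counted in the pathway lists are not reported here by name. Replicate libraries differed by more than sampling noise (chi-square per degree of freedom 9.06 to 24.0). Levels were not compared between genes, since transcript lengths were not used here.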

Additional observations from a re-analysis of the deposited data

How the results depend on the processing

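Signs of the RNA log2 fold changes depended on scaling. Scaled by library totals, 1 subunit was higher and 5 were lower, and the median was -0.0687, with -0.0481 for the alpha ring, -0.0612 for the beta ring, -0.0641 for the ATPases, -0.0472 for the other base subunits and -0.0897 for the lid. Single log2 fold changes that turned negative with library totals were Psma1 -0.22, Psma3 -0.0463, Psma4 -0.0481, Psma5 -0.18, Psma7 -0.12, Psmb1 -0.18, Psmb2 -0.0306, Psmb3 -0.15, Psmb5 -0.29, Psmb6 -0.0612, Psmc1 -0.0794, Psmc3 -0.0687, Psmc4 -0.0731, Psmc5 -0.0595, Psmd2 -0.0472, Psmd4 -0.23, Psmd3 -0.26, Psmd6 -0.17, Psmd7 -0.15, Psmd8 -0.0320, Psmd13 -0.18, Psme4 -0.32, Nfe2l1 -0.30, Usp14 -0.0446, Ubqln1 -0.00106, Rad23b -0.0205 and Mafg -0.0172. With upper-quartile scaling 4 were higher and 3 lower, the median was 0.13, and those that turned negative were Psma1 -0.0180, Psmb5 -0.0921, Psmd4 -0.0282, Psmd3 -0.0575, Psme4 -0.12 and Nfe2l1 -0.11. With a mean of at least 5 CPM, Psme4 was at -0.0033. At a false discovery rate of 0.01, 4 were higher and 0 lower. Leaving out each RNA library in turn gave 4 to 13 higher and 0 to 2 lower, with log2 fold changes of -0.0605 to 0.14 for Nfe2l1, -0.00798 to 0.13 for Psmb5, -0.17 to 0.0476 for Nr5a1 and -0.0174 to 0.0686 for Psme4. DESeq2 size factors in edgeR and DESeq2 itself gave 16 higher and 1 lower, limma-voom 15 and 1, no filter 12 and 1, and the 5 CPM filter 10 and 1. For H3K27ac, limma on log2 signal had 1 region lower, at the promoter of Psmd3, and promoter regions alone gave 0 higher. A fit with edgeR on recovered reads, chosen after seeing the data, gave 8 higher and 2 lower, the promoter of Psme2 and an exon region of Psma3. Of all 40772 regions it called 4315 higher and 2726 lower. Leaving out each H3K27ac library gave 4 to 10 higher, 0 to 2 lower and promoter medians of -0.13 to 0.29. The cause of these differences was not tested.

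With group means removed, same-numbered RNA libraries correlated at -0.10, 0.07 and 0.38 for numbers 1, 2 and 3. FGF-2 library 1 correlated with serum library 2 at 0.38, and FGF-2 library 2 with serum library 1 at 0.32. The remaining pairs ranged from -0.33 to -0.18. The replicate numbers thus matched libraries across the groups for number 3 only, and whether any were handled together was not tested. With the replicate block 12 subunits were higher and 1 lower (11 of the 12 shared), and for H3K27ac the block gave 7 and 0 regions. At this depth Psmb8 had 8 counts with FGF-2 and 12 in serum alone and was not tested, and with 2 libraries per group the promoter folds allow no statement below their spread.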
